A study of Mus musculus with 6 samples.

Results

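The cytosolic ribosomal protein genes were taken as all protein-coding genes whose symbol starts with Rpl or Rps followed by a digit, p or a, without the Rps6k kinases, plus Rpl37rt. The rule found 93 of the 55769 features in the expression tables. Of these, 77 are the core genes that encode the proteins of the ribosome, 46 of the large (60S) and 31 of the small (40S) subunit. A further 7 are paralogs with an l or l1 suffix, 2 are rt copies (Rpl37rt and Rps27rt), 6 carry a pseudogene-style name but are annotated as protein-coding, and 1, Rps19bp1, encodes a protein that binds a ribosomal protein and is not one itself. The libraries came from total RNA of whole cochlea at postnatal day 3, 3 from Plscr5-/- mice (knockout) and 3 from wild-type mice, and Plscr5 belongs to the phospholipid scramblase family. The labels give no strain or allele structure. They do not state that each library is a separate animal either, so the p-values cover differences among libraries that may be technical in part. Groups follow the genotype label, although the RNA extraction text mentions a Pou4f3 mutant line instead of Plscr5.

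A ribosome holds 1 copy of nearly every ribosomal protein, so the cell has to supply the proteins in matched amounts, and their messenger RNAs are among the most abundant in growing tissue. In vertebrates these messenger RNAs begin with a short pyrimidine tract, the 5′ TOP element, through which mTOR signalling and LARP1 control their translation. Mouse ribosomal protein genes have also left many processed copies in the genome, which arise when a spliced messenger RNA is copied back into DNA, and a few of these copies are themselves transcribed.

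The values are in TPM, a level per transcript length and per library total, so levels of different genes can be set side by side. The read depth behind them is unknown, and intervals for counting error are not given. Plscr5 stood at 4.30, 3.69 and 5.01 TPM in knockout libraries, against 14.53, 12.42 and 9.27 TPM in wild-type libraries. The labels' direction therefore held without overlap, but Plscr5 was still listed at a mean of 4.33 TPM in knockout, against 12.1 TPM in wild-type libraries. Its log2 fold change, knockout over wild type, was -1.28 (SE 0.183, limma adjusted p = 0.29). Plscr5 itself thus did not pass the test between genotypes that is applied to the ribosomal protein genes below. The markers of cochlear hair cells were all present, with summed levels of 151.5 to 171.9 TPM in knockout and 162.9 to 189.2 TPM in wild-type libraries. The 4 supporting cell markers summed to 765.1 to 838.9 TPM in knockout and 862.6 to 1009 TPM in wild-type libraries, and the 2 tectorial membrane markers to 5534 to 5863 TPM in knockout and 6138 to 7379 TPM in wild-type libraries. Neither of these last sums overlapped between genotypes, and their part in the values that follow was not tested. Wild-type library 3 also stood apart from the others: its 6 neuron markers summed to 158.6 TPM, against 416.3 and 529.4 TPM in the other wild-type libraries and 503.4 to 681.1 TPM in knockout libraries. Its 5 Schwann cell markers summed to 467.7 TPM, against 1218 and 1316 TPM in the other wild-type libraries and 1343 to 2064 TPM in knockout libraries. The Schwann cell sums thus did not overlap between genotypes either, with or without wild-type library 3, though the gap from 1316 to 1343 TPM was small. Their part in the values that follow was not tested. None of these markers was at 0 in all libraries and none passed the test between genotypes. In bulk tissue, fewer cells of a type and less RNA per cell cannot be told apart.

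The ribosomal protein genes made up a mean of 13.2% of the total TPM in knockout and 13.1% in wild-type libraries, and no member passed the test between them. Summed over the 93 members, the share of the library total was 12.64%, 13.35% and 13.74% in knockout libraries, against 12.91%, 13.17% and 13.14% in wild-type libraries. The groups overlapped, because the knockout libraries held both the lowest and the highest of the 6 sums. In TPM the sums averaged 132429 ± 5570 in knockout and 130707 ± 1430 in wild-type libraries (SD, n = 3 each), so the knockout mean was 101.3% of the wild-type mean, a difference smaller than the knockout spread. A further 19903 ± 1064 TPM in knockout and 19886 ± 595 TPM in wild-type libraries were listed under near-identical copies outside the rule, which are described further on.

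The spread inside the knockout group was shared by nearly all core genes. On the log2(TPM + 1) scale, the median core gene lay at -0.055, 0.016 and 0.063 around its own 6-library mean in knockout libraries 1, 2 and 3, and at -0.021, -0.001 and 0.001 in wild-type libraries 1, 2 and 3. Knockout library 1 was above the gene's own mean for 5 of 77 core genes, and knockout library 3 for 73 of 77. Over all 17097 tested features the same medians ran the other way, at 0.05 in knockout library 1 and -0.036 in knockout library 3. Knockout library 1 also held the highest sum of Schwann cell markers, 2064 TPM, and the highest sum of neuron markers, 681.1 TPM. Its sum of red blood cell markers was the lowest, 442.1 TPM against 908.5 to 1048 TPM in wild-type libraries. That sum was 1481 TPM in knockout library 2, the highest of the 6 libraries. In knockout library 3 it was 634.0 TPM, also below the wild-type libraries. The part of these markers in the spread was not tested.

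**Figure D1:**
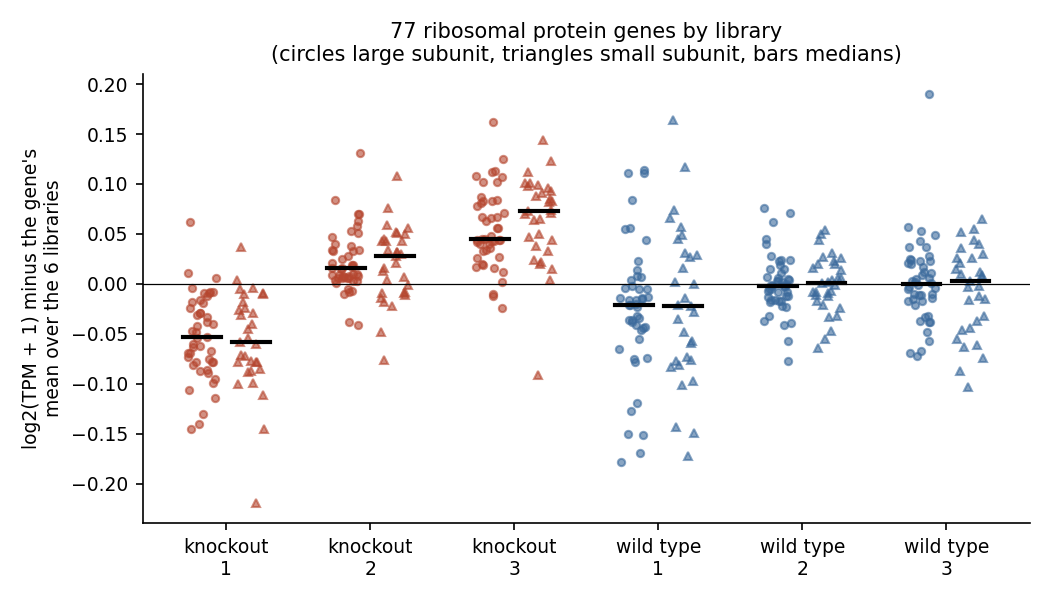
Each point is 1 of the 77 core genes, with the y axis giving its log2(TPM + 1) minus its mean over the 6 libraries and the x axis the library (circles large subunit, triangles small subunit, black bars medians). The core genes sit low together in knockout library 1 (median -0.055) and high together in knockout library 3 (median 0.063), while the medians of the wild-type libraries lie between -0.021 and 0.001.

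Core gene for core gene, the libraries of a genotype agreed closely. The median coefficient of variation was 4.62% among knockout and 2.69% among wild-type libraries, beside 5.16% and 6.89% for the 1362 other features that average 100 TPM or more. These features were not matched in level to the core genes, whose median was 1540 TPM. Rpl22, an RNA-binding protein of the large subunit, varied by 0.206% among knockout libraries, at 723.18, 724.11 and 721.20 TPM, and by 1.77% among wild-type libraries, at 712.22, 709.06 and 732.43 TPM. Rps3a1, a small subunit protein, was the most variable among knockout libraries, at 1556.29, 1865.93 and 1901.69 TPM, against 1874.68, 1846.13 and 1849.25 TPM in wild-type libraries. For Rps3a1 the spread came from the low knockout library 1.

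Subunit by subunit, no gene passed the test. Of all 17097 features tested with limma, 2 passed an adjusted p of 0.05, which is 0.0117%, and both were lower in knockout. None of the 87 members that reached 1 TPM in at least 3 libraries was among them. At an unadjusted p under 0.05 there were 4 of 87 members (4.6%), beside 4.0% of all tested features. The genotypes did not overlap for 4 of 87 members, beside 9.33% of all tested features. Rpl37rt, Rps13 and Rpl28 had every knockout library higher, as did 4.6% of all tested features, and Rpl22l1 had every knockout library lower, as did 4.74%. With fewer libraries in a group the genotypes separate more easily, so the share without overlap rose for all features when a library was left out. Without knockout library 1 it was 31 of 87 members (35.6%), beside 25.9% of all features, and without wild-type library 2 it was 18 of 87 (20.7%), beside 21.9%. Leaving out any one of the other 4 libraries gave 7 of 87, beside 14.5% without knockout library 2, 17.6% without knockout library 3, 16.4% without wild-type library 1 and 19.1% without wild-type library 3.

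The 46 large subunit genes summed to 71056 ± 2813 TPM in knockout and 70211 ± 1026 TPM in wild-type libraries. Their median log2 fold change, knockout over wild type, was 0.012, with 32 of 46 above 0 and a range of -0.093 to 0.088. The 31 small subunit genes summed to 58566 ± 2719 TPM in knockout and 57750 ± 486 TPM in wild-type libraries. Their median log2 fold change was 0.015, with 20 of 31 above 0 and a range of -0.071 to 0.151. Over all tested features the median was -0.011 and 46.6% were above 0. Every one of the 77 core genes had a 95% confidence interval inside a 1.3-fold difference in either direction, as did 41.8% of all tested features, so larger differences lie outside these intervals gene by gene.

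The direction of these small medians was not stable. Of 77 core genes 52 had a log2 fold change above 0 (67.5%), but 67 did so without knockout library 1, and 30 without knockout library 3, when the medians were -0.007 for the large and -0.012 for the small subunit. Centring each library on its median or scaling by a trimmed mean gave 62 of 77 above 0. Removing each library's trend with transcript length gave 40 of 77, with medians of 0.001 for the large and 0.003 for the small subunit. The balance between the subunits moved less. The ratio of large to small subunit sums was 1.222, 1.215 and 1.204 in knockout libraries, against 1.207, 1.218 and 1.223 in wild-type libraries, and the means of 1.214 and 1.216 differed by less than the spread within either genotype.

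**Figure D2:**
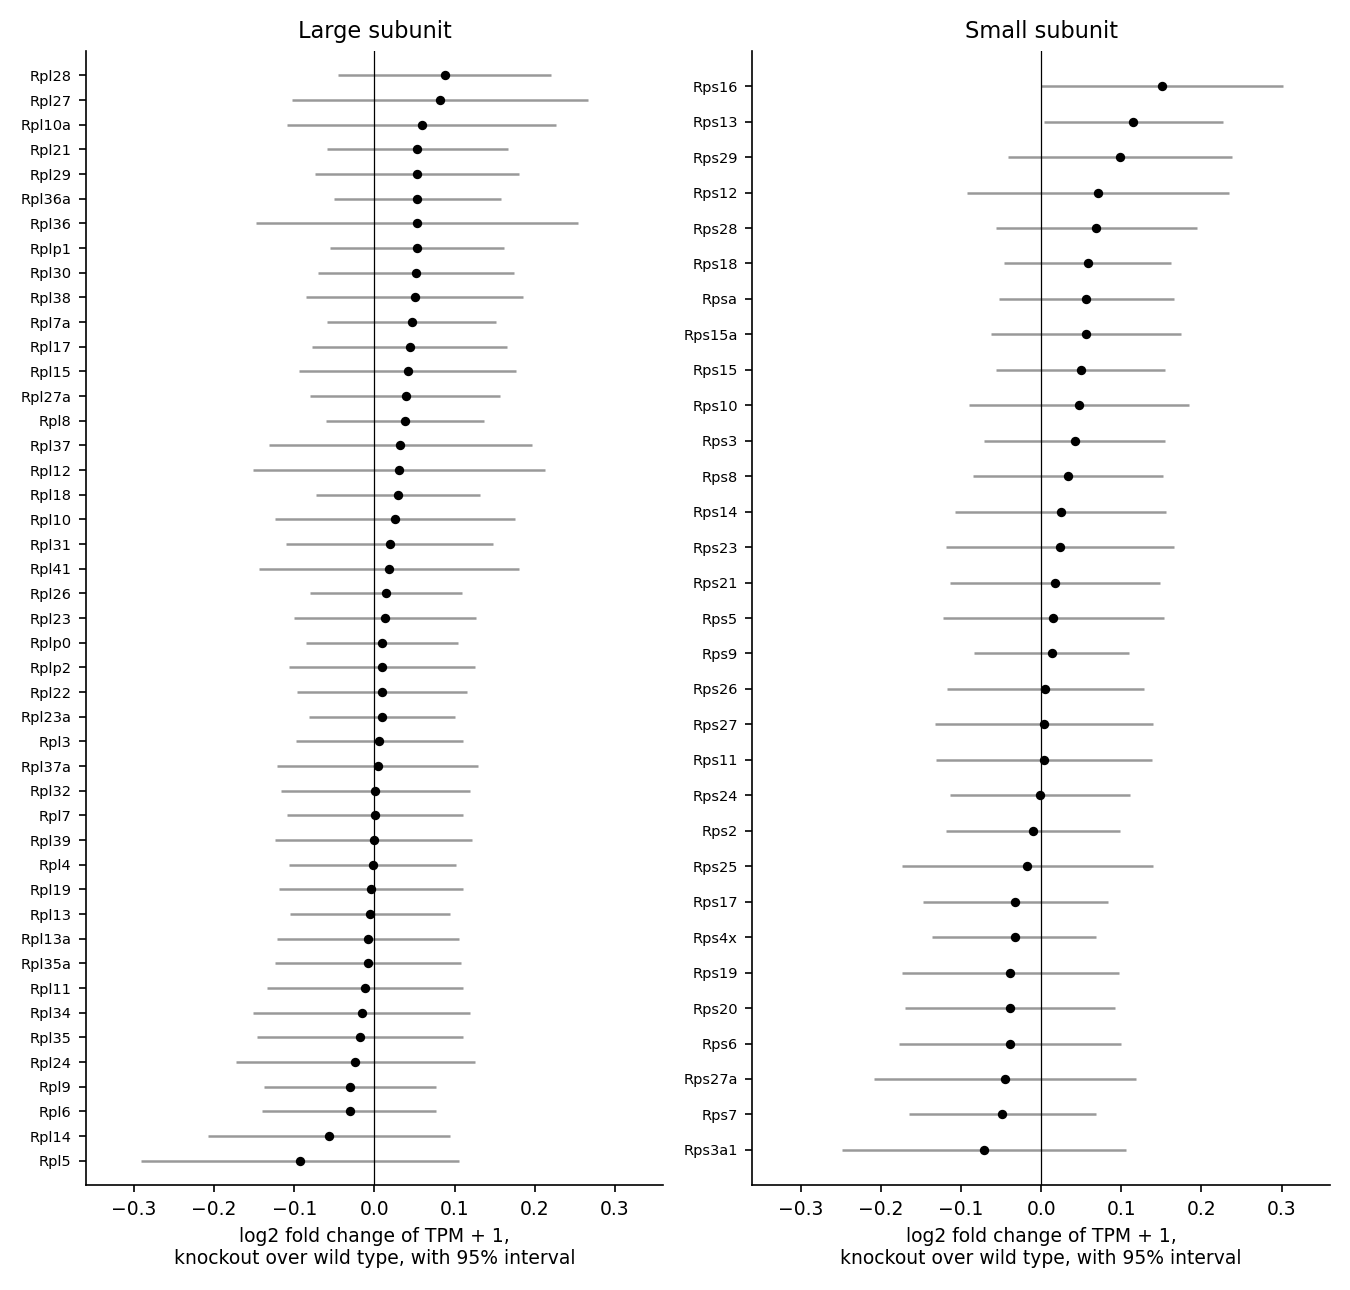
Points are log2 fold changes of TPM + 1 (x axis, knockout over wild type) with 95% confidence intervals as lines, for the large and small subunit core genes (1 large subunit gene is not shown), sorted by value down the y axis. The values run from -0.093 for Rpl5 to 0.151 for Rps16, all intervals shown lie within a 1.3-fold difference, and only the interval of Rps13 lies clear of 0 among the core genes.

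Taken alone, without the near-identical copies described further on, the most abundant large subunit genes included Rplp1, Rpl13a, Rpl41 and Rpl23a. Rplp1 belongs to the acidic P-stalk, the lateral arm of the large subunit that recruits translation factors, and stood at 4504.01, 4675.23 and 4868.18 TPM in knockout libraries, against 4353.09, 4656.54 and 4528.50 TPM in wild-type libraries. The groups overlapped. Rplp0, the protein on which the stalk is built, averaged 2127 ± 34.5 TPM in knockout and 2113 ± 24.1 TPM in wild-type libraries. Rplp2, the partner of Rplp1 in the stalk, averaged 764.2 ± 30.1 TPM in knockout and 758.8 ± 3.81 TPM in wild-type libraries. The 3 stalk genes summed to 7574 ± 220 TPM in knockout and 7384 ± 166 TPM in wild-type libraries, with overlapping values. Rpl13a, also known in human cells as a brake on the translation of inflammatory messenger RNAs once it leaves the ribosome, averaged 4580 ± 248 TPM in knockout and 4602 ± 69.5 TPM in wild-type libraries. Rpl41, which encodes a very short and strongly basic peptide, averaged 3412 ± 183 TPM in knockout and 3375 ± 280 TPM in wild-type libraries.

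Taken alone, without copies, the most abundant small subunit genes were Rps27, Rps24, Rps15, Rps12 and Rps15a. Averaged over the 6 libraries with copies added, Rps28 was highest at 4474 TPM, then Rps27 at 4278 TPM and Rps29 at 3290 TPM. Rps27, a zinc-finger protein, averaged 4257 ± 292 TPM in knockout and 4240 ± 159 TPM in wild-type libraries. Rps24, one of the genes mutated in human Diamond-Blackfan anaemia, averaged 3272 ± 142 TPM in knockout and 3275 ± 101 TPM in wild-type libraries. Rpsa, which is also known as the laminin receptor precursor, stood at 975.15, 1001.99 and 1026.38 TPM in knockout libraries, against 962.82, 984.45 and 940.89 TPM in wild-type libraries. Only the lowest knockout library reached into the wild-type range. At the top of the order, Rplp1 and Rpl13a averaged 4598 and 4591 TPM over the 6 libraries and differed by less than their spread.

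The core genes with the smallest p in the small subunit were Rps13, Rps16, Rps29, Rps18 and Rps28. Rps13 stood at 665.87, 672.21 and 688.51 TPM in knockout libraries, against 639.66, 620.63 and 610.82 TPM in wild-type libraries. Every knockout library was above every wild-type library, and the log2 fold change was 0.12 (SE 0.05) with an unadjusted limma p of 0.0447 and an adjusted p of 0.989. Rps16 stood at 841.28, 909.96 and 919.49 TPM in knockout libraries, against 749.13, 855.98 and 801.71 TPM in wild-type libraries. Its lowest knockout value fell inside the wild-type range, and the log2 fold change was 0.15 (SE 0.07, limma adjusted p = 0.989). For Rps29, Rps18 and Rps28 the log2 fold changes were 0.10, 0.06 and 0.07, each with a limma adjusted p of 0.989. In the large subunit, the core genes with the smallest p were Rpl28 and Rpl36a. Rpl28 stood at 732.29, 736.34 and 780.32 TPM in knockout libraries, against 665.34, 726.02 and 725.39 TPM in wild-type libraries. The groups did not overlap, but the gap between them was small, and the log2 fold change of 0.09 (SE 0.06) had a limma adjusted p of 0.989. Rpl36a had a log2 fold change of 0.05 (limma adjusted p = 0.989).

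Paralogs with an l suffix encode relatives of a core protein, and some of them can take its place in part of the ribosomes. Of the 7, Rpl22l1, Rpl36al, Rps27l and Rpl7l1 were tested, and Rpl3l, Rpl10l and Rpl39l were below the level filter. Rpl3l, known from heart and skeletal muscle, was listed at 0 in all but knockout library 2, where it had 0.30 TPM. Rpl10l, known from the testis, was listed at 0 in every library. Rpl39l, likewise known from male germ cells, stood at 1.14, 0.24 and 0.11 TPM in knockout libraries, against 0.14, 0.24 and 0.25 TPM in wild-type libraries. The 7 paralogs together summed to 893.8 ± 21.9 TPM in knockout and 914.4 ± 49.4 TPM in wild-type libraries.

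Rpl22l1, the paralog of Rpl22, was the member of this group with the smallest p. It stood at 210.66, 221.65 and 231.59 TPM in knockout libraries, against 255.89, 250.93 and 237.62 TPM in wild-type libraries. Every knockout library was below every wild-type library, and the log2 fold change was -0.17 (SE 0.06, limma adjusted p = 0.989). Rpl22l1 made up 22.6%, 23.4% and 24.3% of the Rpl22 and Rpl22l1 sum in knockout libraries, against 26.4%, 26.1% and 24.5% in wild-type libraries. The shares did not overlap, though knockout library 3 and wild-type library 3 lay close, and the difference of -2.26 percentage points had a two-sided exact permutation p of 0.1, the smallest that 3 libraries against 3 can give. It was 1 of 7 such shares computed, and adjustment over them could not bring it lower. Over the part of the coding sequence that aligned (79.9%), Rpl22l1 and Rpl22 were identical at 74.58% of bases.

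The other tested paralogs overlapped between genotypes. Rpl36al averaged 423.9 ± 8.45 TPM in knockout and 417.4 ± 28.6 TPM in wild-type libraries, beside its parent Rpl36a at 1132 ± 23.7 TPM in knockout and 1091 ± 20.4 TPM in wild-type libraries. Their coding sequences were identical at 87.85% of bases. Rps27l, a target of p53, averaged 191.9 ± 11.7 TPM in knockout and 188.0 ± 9.71 TPM in wild-type libraries. Its share of the Rps27 and Rps27l sum was 4.32% ± 0.22 in knockout and 4.25% ± 0.15 in wild-type libraries. Rpl7l1 averaged 56.08 ± 6.36 TPM in knockout and 60.63 ± 3.26 TPM in wild-type libraries. The log2 fold changes were 0.02 for Rpl36al, 0.03 for Rps27l and -0.12 for Rpl7l1, with limma adjusted p-values of 0.993, 0.993 and 0.989.

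**Figure D3:**
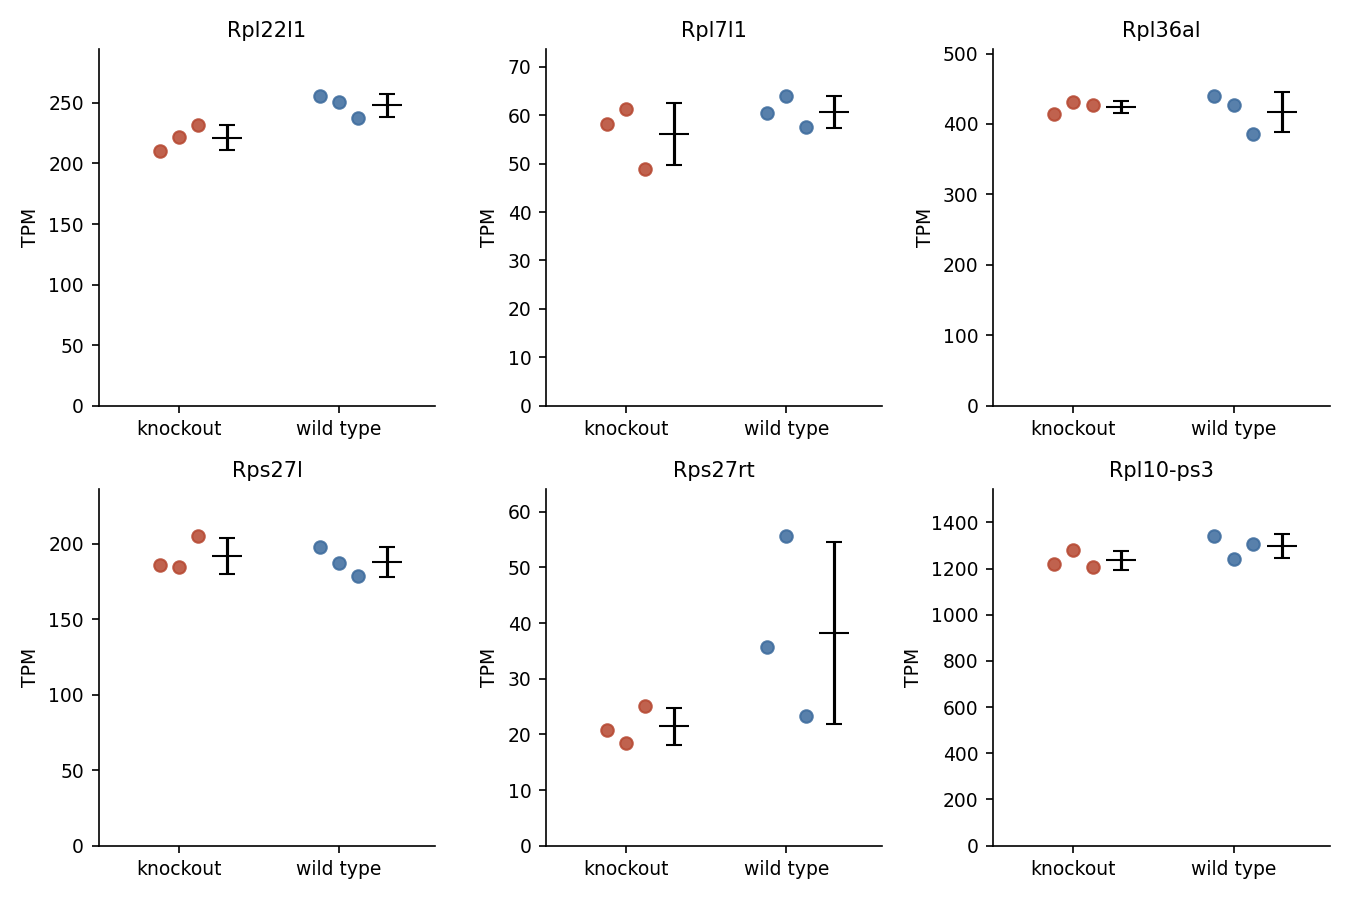
TPM (y axis, from 0) of the 4 tested l-suffix paralogs, of Rps27rt and of Rpl10-ps3 in each library, knockout left and wild type right, with bars for the mean and SD of 3 libraries. Rpl22l1 has all knockout libraries below all wild-type libraries, the other 3 paralogs and Rpl10-ps3 overlap, and Rps27rt is widely spread among wild-type libraries (23.25 to 55.70 TPM).

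Rpl37rt is annotated as a transcribed processed pseudogene on chromosome 5, and Rpl37, the gene it was copied from, lies on chromosome 15. Rpl37 encodes a small zinc-binding protein of the large subunit. The Rpl37 coding sequence from the GENCODE M21 transcript and the stretch of Rpl37rt aligned to it are shown because the whole difference between the pair at this stretch is 1 base, printed in capitals.
Rpl37: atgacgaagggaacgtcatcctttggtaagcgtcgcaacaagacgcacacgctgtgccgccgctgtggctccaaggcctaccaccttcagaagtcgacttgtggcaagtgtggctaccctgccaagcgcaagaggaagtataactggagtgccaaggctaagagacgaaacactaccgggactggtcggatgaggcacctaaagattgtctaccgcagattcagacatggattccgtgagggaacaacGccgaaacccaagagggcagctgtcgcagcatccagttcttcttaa
Rpl37rt: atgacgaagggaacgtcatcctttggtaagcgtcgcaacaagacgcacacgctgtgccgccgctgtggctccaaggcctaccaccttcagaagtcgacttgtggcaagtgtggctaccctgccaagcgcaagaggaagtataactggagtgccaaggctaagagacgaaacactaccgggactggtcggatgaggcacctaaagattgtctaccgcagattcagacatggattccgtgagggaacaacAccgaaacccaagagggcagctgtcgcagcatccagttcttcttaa
Counted from 1 at the first base of the start codon, the pair differ by G249A, in the third base of codon 83, and they were identical at 99.66% of the 294 bases. A read from elsewhere in the coding sequence fits both, and how the deposited values divided such reads is not given in the sources used here.

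Rpl37rt had the smallest p of the 87 tested members. It stood at 450.85, 507.56 and 513.07 TPM in knockout libraries, against 317.48, 337.80 and 323.70 TPM in wild-type libraries. All 3 knockout libraries lay above all 3 wild-type libraries, by more than the range within either genotype. The log2 fold change was 0.58 (SE 0.07), and its 95% confidence interval ran between 0.43 and 0.74. Its unadjusted limma p of 2.41e-05 ranked 4 among 17097 features. The rule adds Rpl37rt by name, and members were chosen with earlier results of these data known. Its rank and its p-values, including that of its share below, are therefore descriptive. The adjusted p of 0.103 did not pass the threshold, and over the alternatives tried it ran from 0.0615 to 0.667. Without wild-type library 3 the log2 fold change was 0.58. The Schwann cell, supporting cell and tectorial marker sums lay apart between genotypes without that library too. Their part in the Rpl37rt values was not tested.

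Rpl37 itself had 672.72, 717.10 and 763.31 TPM in knockout libraries, against 652.53, 747.01 and 706.23 TPM in wild-type libraries. The groups overlapped, and the log2 fold change was 0.03 (95% confidence interval -0.13 to 0.20). Of the pair's summed level, Rpl37rt held 40.1%, 41.4% and 40.2% in knockout libraries, against 32.7%, 31.1% and 31.4% in wild-type libraries. The shares were narrow within each genotype, at 40.6% ± 0.74 in knockout and 31.8% ± 0.85 in wild-type libraries, and far apart between them. The difference of 8.82 percentage points had a two-sided exact permutation p of 0.1, the smallest the design allows, and it stayed between 8.40 and 9.31 points when any one library was left out. Rpl37 and Rpl37rt together summed to 1208 ± 77.7 TPM in knockout and 1028 ± 57.4 TPM in wild-type libraries. With the pair counted as 1 gene the log2 fold change was 0.23 (SE 0.07, limma adjusted p = 0.99), and the knockout libraries again lay above the wild-type libraries.

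**Figure D4:**
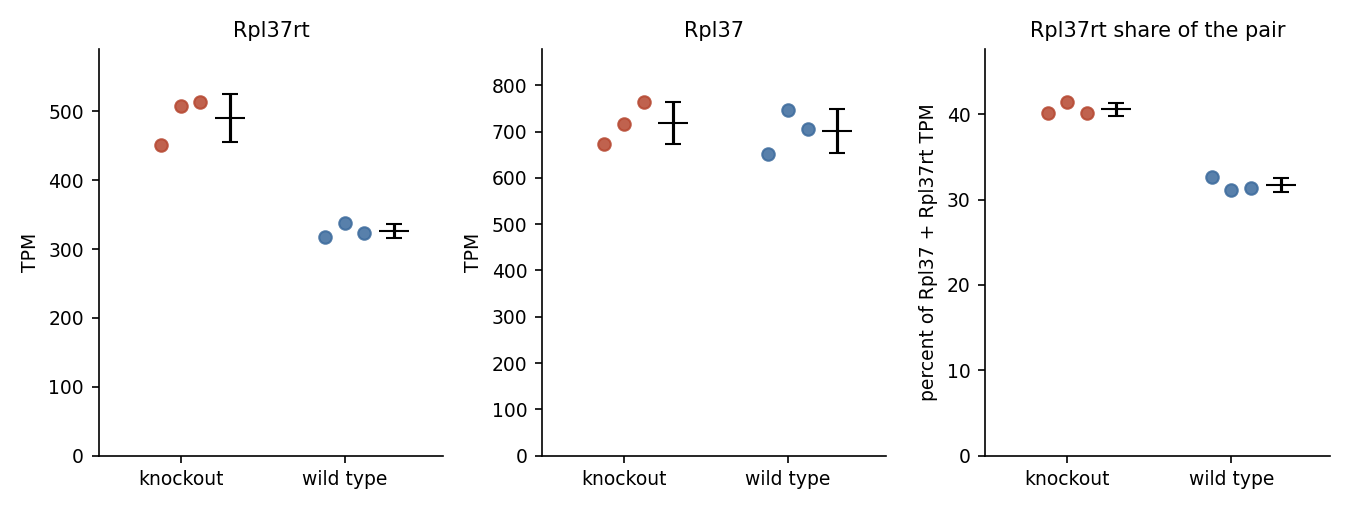
TPM of Rpl37rt and Rpl37, and the percent of their summed TPM listed under Rpl37rt (y axes, from 0), in each library, knockout left and wild type right, with bars for the mean and SD of 3 libraries. Rpl37rt and its share are higher in all 3 knockout libraries (40.1% to 41.4%) than in all 3 wild-type libraries (31.1% to 32.7%), while Rpl37 overlaps.

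Rps27rt, on chromosome 9, is a copy of Rps27 on chromosome 3 and is annotated as protein-coding. Its aligned stretch had the same 255 bases as the Rps27 coding sequence, which is printed once because it stands for both.
Rps27 and Rps27rt: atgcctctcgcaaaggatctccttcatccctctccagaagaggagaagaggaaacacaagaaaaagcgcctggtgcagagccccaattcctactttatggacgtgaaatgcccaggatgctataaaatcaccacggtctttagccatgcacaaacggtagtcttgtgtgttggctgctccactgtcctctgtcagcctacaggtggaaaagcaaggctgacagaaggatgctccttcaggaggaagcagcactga
Rps27rt stood at 20.82, 18.49 and 25.07 TPM in knockout libraries, against 35.69, 55.70 and 23.25 TPM in wild-type libraries. The groups overlapped through wild-type library 3, and wild-type library 2 was far above the rest. The log2 fold change was -0.73 (SE 0.30, limma adjusted p = 0.989), and it was -0.42 (limma adjusted p = 0.813) without wild-type library 2 and -1.03 (limma adjusted p = 0.623) without wild-type library 3. It lies on the opposite strand of Osbpl10, which ran between 9.30 and 12.84 TPM across the 6 libraries, and reads of the pair cannot be told apart without strand. As a share of the Rps27 and Rps27rt sum it was 0.502% ± 0.069 in knockout and 0.897% ± 0.402 in wild-type libraries.

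The start sites of the 2 copies and their parents are shown because a processed copy is made from messenger RNA and usually does not carry its parent's upstream DNA. RefSeq start-site windows (build GRCm38.p6) were found for 57 of the 77 core genes and for both rt copies. Each line gives 40 bases before and 20 bases from the annotated start, 5′ to 3′ on the gene's strand. Capitals mark CCGGAAG, the core letters of ETS-family sites, or CTTTCC, letters of a pyrimidine tract of the TOP type, or their reverse complements.
Rpl37, chr15:5116573-5116632, + strand: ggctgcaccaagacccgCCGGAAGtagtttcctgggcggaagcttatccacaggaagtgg
Rpl37rt, chr5:115110249-115110308, - strand: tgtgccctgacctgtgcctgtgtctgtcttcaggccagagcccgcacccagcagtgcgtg
Rps27, chr3:90213629-90213688, - strand: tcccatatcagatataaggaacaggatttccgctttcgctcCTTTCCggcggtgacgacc
Rps27rt, chr9:114982720-114982779, - strand: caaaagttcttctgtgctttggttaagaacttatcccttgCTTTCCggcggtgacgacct
The Rpl37 window held CCGGAAG, and neither motif was in the Rpl37rt window or in the whole 300 bases of RefSeq sequence around its start. Rps27 and Rps27rt both held CTTTCC at the start, followed by the same letters. On both strands of the 300-base windows, CCGGAAG was in 37.3% of the 67 core gene windows (some genes have several starts) and 8.86% of all 32851 windows. CTTTCC was in 49.3% of core gene windows and 26.6% of all windows. A match describes letters only and is no evidence of a bound factor.

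Near-identical copies held much of the level of some core genes, which bears on every value above. A search of each core coding sequence against all annotated transcripts, at 95% identity or more over 90% or more of the sequence, found 558 copies of 74 core genes. Of these 558, 196 were listed at 0 in all libraries, 78 averaged 1 TPM or more and 22 averaged 100 TPM or more. For 11 core genes more than 50% of the summed level was listed under copies, for 14 it was between 1% and 50%, and for 52 it was under 1%. The core genes with the lowest listed levels were among the first group. Rpl12 averaged 61.6 ± 4.63 TPM in knockout and 60.17 ± 0.80 TPM in wild-type libraries, while its processed copy Gm10275 averaged 1650 TPM in both, with SDs of 69.0 and 48.9. Rpl5, which with Rpl11 carries the 5S RNA and restrains Mdm2, averaged 100.8 ± 6.03 TPM in knockout and 107.8 ± 9.61 TPM in wild-type libraries, while its copy Gm15500 averaged 1426 ± 18.8 TPM in knockout and 1457 ± 33.9 TPM in wild-type libraries. Rpl27a averaged 327.3 ± 6.01 TPM in knockout and 318.6 ± 4.32 TPM in wild-type libraries, beside 2210 ± 107 TPM in knockout and 2197 ± 86.9 TPM in wild-type libraries for its copy Gm7536. All 3 copies were 100% identical to their parent over the aligned coding sequence.

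With copies added to their parent, the levels of the 77 core genes became more even. The highest was 75.5 times the lowest when genes were taken alone, and 6.81 times when copies were added, between 675.2 TPM for Rpl35 and 4599 TPM for Rplp1. The number of core genes below 500 TPM was 4 alone (Rpl12, Rpl5, Rpl27a and Rps20) and 0 with copies. Between genotypes 0 of 77 passed the test with copies added, 52 were above 0 and the median log2 fold change was 0.009. Several of the genes with the smallest p moved toward 0. Rps13 summed with its copies stood at 1201 ± 39.2 TPM in knockout and 1212 ± 39.8 TPM in wild-type libraries, with a log2 fold change of -0.01 (limma adjusted p = 0.998). Its copy Rps13-ps2 stood at 62.35, 89.43 and 92.04 TPM in knockout libraries, against 129.23, 143.60 and 105.26 TPM in wild-type libraries. For Rps29 and Rpl28 the log2 fold changes with copies were 0.01 and 0.02, and for Rpl36a -0.03. Those of Rps18 and Rps28 stayed at 0.06 and 0.07, and that of Rps16 was 0.09 with copies and 0.15 alone. The sole core gene with an unadjusted limma p under 0.05 after copies were added was Rpl37, whose copy is Rpl37rt. That is 1 of 77, beside 4.0% of all tested features in the fit without copies added. Rpl37 and Rpl21 were the 2 of 77 whose groups did not overlap with copies added, both with the knockout higher. The share without overlap was 9.33% of all tested features without copies added.

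**Figure D5:**
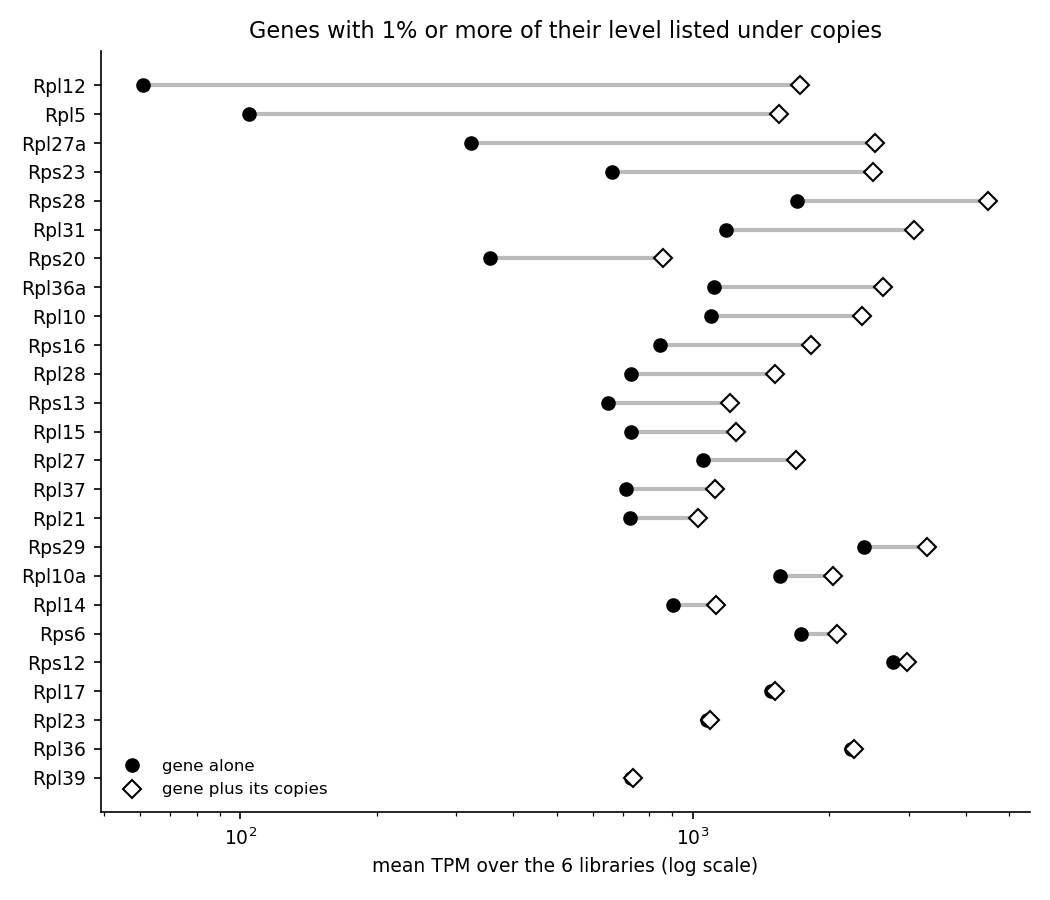
Mean TPM over the 6 libraries (x axis, log scale) of the 25 core genes with 1% or more of their level listed under copies, alone (filled circles) and with copies added (open diamonds), sorted by the copies' share down the y axis. Rpl12, at 60.9 TPM alone and 1726 TPM with copies, moves most, and the diamonds span a narrower range than the circles.

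Of the 6 members with pseudogene-style names, Rpl10-ps3, Rps12-ps3, Rpl9-ps6 and Rpl36a-ps1 met the same criteria for a copy of a core gene. Rpl10-ps3, which was 100% identical to Rpl10 over the coding sequence, averaged 1236 ± 40.1 TPM in knockout and 1298 ± 50.7 TPM in wild-type libraries, and held 52.8% ± 1.63 of the Rpl10 and Rpl10-ps3 sum in knockout and 54.4% ± 1.25 in wild-type libraries. Rps12-ps3 stood at 119.24, 151.15 and 76.99 TPM in knockout libraries, against 129.37, 90.70 and 143.01 TPM in wild-type libraries. Relative to its mean it varied more than Rps12, which averaged 2832 ± 201 TPM in knockout and 2696 ± 191 TPM in wild-type libraries. Rpl9-ps6 averaged 3.95 ± 1.44 TPM in knockout and 4.29 ± 2.82 TPM in wild-type libraries. Rpl9-ps1 and Rpl36-ps4 were listed at 0 in every library, and Rpl36a-ps1 reached at most 1.14 TPM. Outside the rule, 2 identical copies of Rpl27, Rpl27-ps3 and Gm11518, were listed with the same value in 4 of 6 libraries. In the others the values were 510.54 and 139.53 TPM (knockout library 2) and 118.46 and 475.22 TPM (wild-type library 2), while their sums stayed between 574.7 and 717.6 TPM over all 6 libraries. Values of single copies with identical sequence are therefore uncertain.

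Genes that work with the ribosome were described by lists chosen by role, and none of their members passed the test. Of 19 translation genes with a TOP start, 15 had a log2 fold change above 0 (median 0.02), beside 46.6% of all tested features. Rack1, a scaffold protein bound to the small subunit, stood at 1058.02, 1069.49 and 1114.66 TPM in knockout libraries, against 969.11, 1020.46 and 1051.01 TPM in wild-type libraries. These groups did not overlap, with a log2 fold change of 0.09 (limma adjusted p = 0.989). Rack1 was 1 of 19 without overlap, beside 9.33% of all tested features (4.6% with the knockout higher).

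Of 38 ribosome biogenesis genes, 24 were above 0 (median log2 fold change 0.02). Only 1 had an unadjusted limma p under 0.05, beside 4.0% of all tested features. That gene, Nop56, a core protein of the box C/D particles that methylate ribosomal RNA, stood at 108.41, 98.17 and 99.78 TPM in knockout libraries, against 83.76, 96.89 and 85.92 TPM in wild-type libraries (log2 fold change 0.20, limma adjusted p = 0.989). Wdr12, part of the complex that matures the large subunit RNA, stood at 13.95, 15.71 and 14.71 TPM in knockout libraries, against 13.08, 12.47 and 11.89 TPM in wild-type libraries. Both genes had every knockout library above every wild-type library. On this list 3 of 38 genes did not overlap, all with the knockout higher, beside 9.33% of all tested features (4.6% with the knockout higher).

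Of 78 mitochondrial ribosomal protein genes, 53 were above 0 (median log2 fold change 0.03), and Mrps16 had the smallest p, at 35.50 ± 2.72 TPM in knockout and 30.14 ± 1.40 TPM in wild-type libraries (log2 fold change 0.23, limma adjusted p = 0.989). Mrps21 went the other way in its values, with 175.3 ± 9.34 TPM in knockout and 200.1 ± 23.5 TPM in wild-type libraries. Of 14 genes in the growth control of ribosomal protein synthesis, 4 were above 0 (median log2 fold change -0.04). Mycn, a transcription factor that drives ribosome production, averaged 19.66 ± 1.45 TPM in knockout and 21.01 ± 0.93 TPM in wild-type libraries. The lists share libraries and normalization with the ribosomal protein genes and carry no test of their own.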

How the data were processed

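Total RNA libraries of P3 cochlea (3 Plscr5 knockout, 3 wild type) were analysed from 6 deposited tables of TPM, a unit read from the values, which sum to 1000000 per library. Per the submitters' processing notes, DESeq2 and the build mm8 were used, with no role given; the aligner, the read assignment and the strand setting are not stated in the labels. Symbols and types came from GENCODE M21 (GRCm38), matching 52135 of 55769 IDs. Features with 1 TPM in 3 or more libraries (17097) were tested with limma 3.58.1 (R 4.3.3; log2(TPM + 1), intensity trend, robust moderation, Benjamini-Hochberg, threshold 0.05), and checked on simulated data. Fold changes understate low genes. Shares used two-sided exact permutation tests. Copies were found with BLAST 2.17.0. Members and lists were chosen with earlier results of these data known. Named genes were the rt and l members with their parents, the P-stalk genes, Rpsa, the 5 highest, 3 lowest and 6 smallest-p members per subunit, and 4 smallest-p genes per list; Rps3a1, Rps13-ps2 and the copies were named after their values were seen. Results for 2 genes that the rule names are not reported here.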

Additional observations from a re-analysis of the deposited data

How the results depend on the processing

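No ribosomal protein member passed the threshold under any of the 18 alternatives (Rpl37rt is merged into Rpl37 in the one with copies summed into their parent), where 0 to 2 features of the whole table were called higher and 0 to 2 lower. The count called lower, 2 in the fit as reported, was 1 under median centring, trimmed-mean scaling, without mitochondrial and haemoglobin features, with protein-coding features only (where 1 was called higher) and with the length trend removed, and 0 with no filter, with no variance trend and with the replicate number as a block. After subtraction of each genotype's mean, same-numbered libraries correlated at 0.188, -0.055 and 0.242 over the tested features. The other knockout and wild-type pairs ran from -0.269 to 0.126. These values do not settle whether the numbers pair the libraries. With the replicate block the limma adjusted p of Rpl37rt was 0.235 and no member was called. Leaving out 1 library at a time gave 0 to 2 features higher and 0 to 2 lower, and 7 to 31 members without overlap between genotypes; trimmed-mean scaling gave 2. The log2 fold changes of Rpl36a and Rps13 turned to -0.0282 and -0.0123 with copies summed into their parent, an alternative chosen after seeing the data, because the copies' values went the other way. With single libraries left out, Rpl37 ran from -0.0191 to 0.0783, Rps27l from -0.0207 to 0.0666 and Rpl36al from -0.0323 to 0.0634; the cause was not tested. The log2 fold change of Rpl37rt stayed between 0.551 and 0.644. TPM keeps no depth, so counting error cannot be separated from the spread between libraries.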
